A study of Mus musculus with 11 samples.

Results

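The loci described here are those of 10 genes for transcription factors of the C/EBP, Runx and Ikaros families and the Runx partner Cbfb, in ChIP-Seq libraries of PU.1 from erythroid cells of the mouse. The members were taken from a list of names (Cebpa, Cebpb, Cebpd, Cebpe, Runx1, Runx2, Runx3, Cbfb, Ikzf1 and Ikzf2). The rule used no measured value, although the list was drawn up with earlier results of these data known. They are 10 of 22229 genes (the protein-coding genes annotated on mm9 and the listed genes), and each was examined over its gene body with 30 kb on either side, with 40 kb downstream of Cebpa. MEL cells are a murine erythroleukemia line, here of clone DS19 by the methods of the study and clone # 4 by the labels, which carries GATA-1 fused to ER and was kept in puromycin. ES-EP are erythroid progenitors derived from embryonic stem cells, grown with Epogen, stem cell factor, IGF-1 and dexamethasone. PU.1 was precipitated from both with the same antibody (T-21), and DNA taken before the precipitation served as input. By the methods of the study there were 2 chromatin preparations for each cell type. The letter of a label (A or B) was read as the preparation and the number as 1 of its 2 libraries, which were summed. This gives n = 2 preparations for each cell type throughout. The input of MEL cells came from 1 library and that of ES-EP from 2.

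PU.1 is a transcription factor of the ETS family that binds DNA around a GGAA core and drives myeloid and B cell development. Its overproduction in erythroid precursors, as after Friend virus infection, blocks their maturation, and MEL cells stem from such a leukemia. C/EBP proteins are leucine zipper factors that act beside PU.1 in granulocytes and macrophages. Runx proteins bind DNA as partners of the Cbfb protein and are needed for blood stem cells and several later lineages. Ikaros proteins are zinc finger factors known best from lymphocytes, and Ikaros itself is also present in erythroid cells. RNA was not measured in these libraries, so the loci are described by PU.1 occupancy alone.

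The libraries hold between 2054667 and 5051235 uniquely aligned reads on assembled chromosomes, and 1.59 to 9.0% of them share position and strand with an earlier read. Reads were moved to the middle of their fragments and counted in windows of 500 bp. A site was called where the ChIP reads of both preparations exceeded the local input mean, taken as the highest input density, scaled by depth, of the window, 5 kb, 10 kb and the genome (exact Poisson test, adjusted p below 0.05 over all windows). Folds below are ChIP reads over this local mean with both preparations summed, and their intervals (exact Poisson, 95%) cover the counting error of the ChIP reads only. They take the local mean as fixed, although it often rests on few input reads. Levels are RPM, the reads in the window per 1000000 reads of the preparation. Coordinates are those of mm9, counted from 1. Sites are named by their distance from the most upstream transcription start site (TSS) of the gene, with plus for downstream.

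In all, 24 PU.1 sites were found in the regions of the 10 genes, of 10630 in the genome. MEL cells had 23 of them, at 9 of the 10 genes, and ES-EP had 13, at 5 genes. The order of the site counts turned without ES-EP preparation B (22 in MEL, 33 in ES-EP) and with a binomial test on the input of the window (6 and 7). Sites of ES-EP lay at 8 genes without its preparation B and at 9 with the preparations summed, and sites of MEL cells at 6 genes with library 1 alone and at 5 with the binomial test. Among all genes 42.0% had a site in MEL against 33.8% in ES-EP within the same distance. The regions of the members are longer than most, with a median of 112 kb against 75.5 kb over all genes. Per Mb the member regions held 15.25 sites in MEL against 8.62 in ES-EP, and the genome held 3.08 and 2.14. The genome figures count every stretch of the chromosomes, also those far from genes, so the regions compared are not alike. Ikzf1 alone held 8 of the member sites. Of the 24 sites, 12 were called in both cell types, 11 in MEL cells alone and 1 in ES-EP alone. Over the genome 30.5% of the sites were called in both, 46.5% in MEL cells alone and 23% in ES-EP alone, against 50%, 45.8% and 4.17% of the member sites.

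Ikzf1 carried 8 sites, Runx1 had 4, Runx3 had 3, and Cbfb, Cebpb and Runx2 had 2 each. Cebpa, Cebpd and Ikzf2 had 1 site each, and none was found at Cebpe. By position, 15 sites lay in introns, 5 between genes, 3 in untranslated regions of exons and 1 in a coding exon. Positions of all sites of the genome were not counted for comparison. Of the 24 member sites, 6 were within 1 kb of a TSS of the member gene. A further 2 lay within 1 kb of a neighbour's TSS. These were the Cebpb site at -27.1 kb and the Runx2 site at +37.0 kb. The former lies in an intron of Tmem189, 214 bp upstream of the nearest TSS of that gene. The latter is 210 bp inside Supt3h. At the called sites the fold ranged from 2.98 to 34.7 in MEL cells with a median of 6.75, and from 2.59 to 38.5 in ES-EP with a median of 7.7. The medians over all called sites of the genome were 7.08 and 7.46. Of the 23 sites of MEL cells, 6 were called under all 10 alternatives tried, and the fewest were 4 (Runx3 +8.3 kb), 5 (Runx3 +61.4 kb) and 6 (Runx2 +1.7 kb and Ikzf1 +5.3 kb). Of the 13 sites of ES-EP, 5 were called under all 12 alternatives, and the fewest were 8 (Ikzf1 +45.3 kb).

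**Figure D1:**
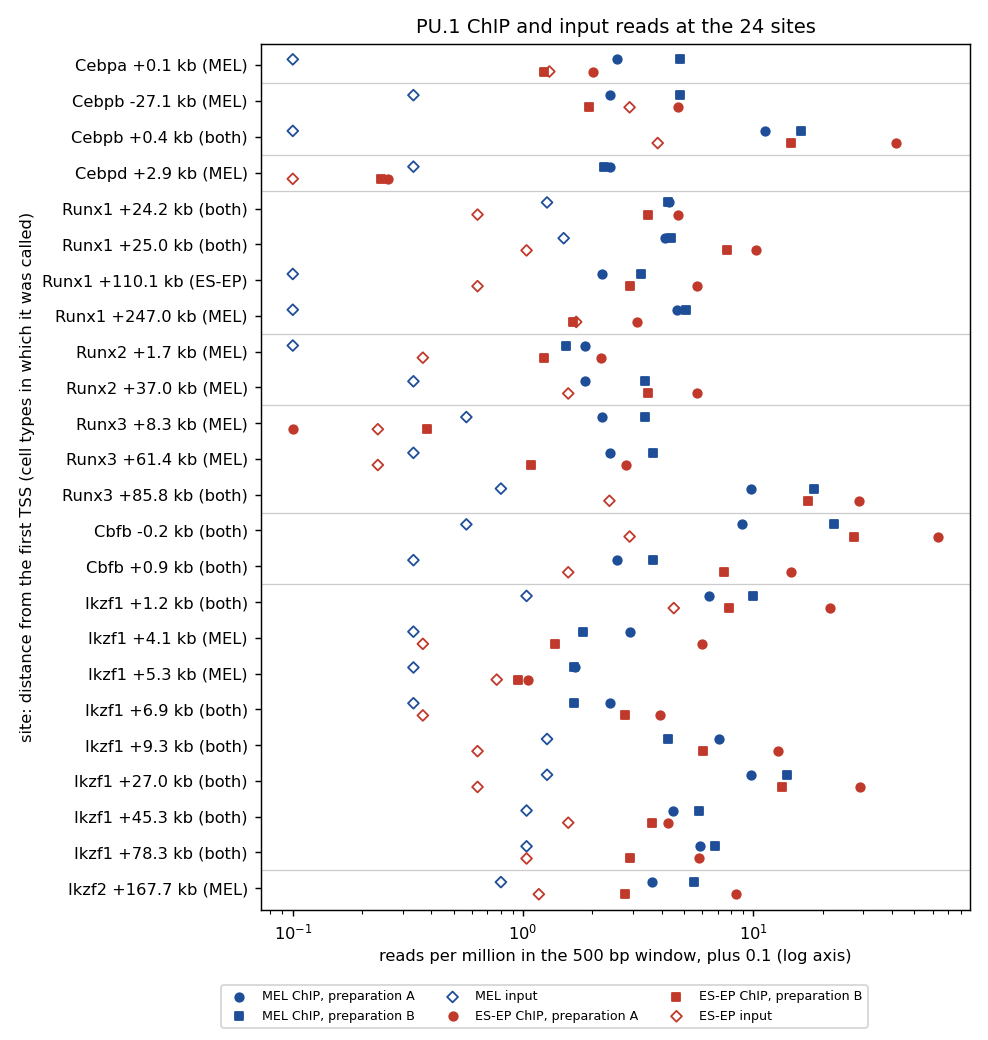
RPM plus 0.1 (log axis) in the 500 bp window of each of the 24 sites, with the 2 ChIP preparations (filled) and the input (open diamonds) of MEL cells and ES-EP. The ES-EP points of Cebpd +2.9 kb and Runx3 +8.3 kb lie below 1 on the axis. The ChIP points of Cbfb -0.2 kb, Cebpb +0.4 kb, Runx3 +85.8 kb, Ikzf1 +1.2 kb and Ikzf1 +27.0 kb are far to the right in both cell types.

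The level of a site moved with the preparation as well as with the cell type. In ES-EP, preparation A had more RPM than preparation B at 23 of the 24 sites, and at 88.9% of all sites of the genome. In MEL cells preparation B was the higher at 17 of the 24 sites, and at 65.8% of all sites. The reads of both preparations are therefore given for each site, while the folds are of both summed.

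Ikzf1, which encodes Ikaros, was the most densely occupied of the 10 genes. With Ikzf1 itself, 22 of the 22229 genes (0.099%) had 8 sites or more. Among 3195 genes with regions of 100 to 150 kb, to which Ikzf1 belongs, 3 had 8 sites or more and the median was 1. The sites were at +1.2, +4.1, +5.3, +6.9, +9.3, +27.0, +45.3 and +78.3 kb, all within the gene. MEL cells had all 8 and ES-EP had 6, with the sites at +4.1 and +5.3 kb called in MEL cells alone.

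**Figure D2:**
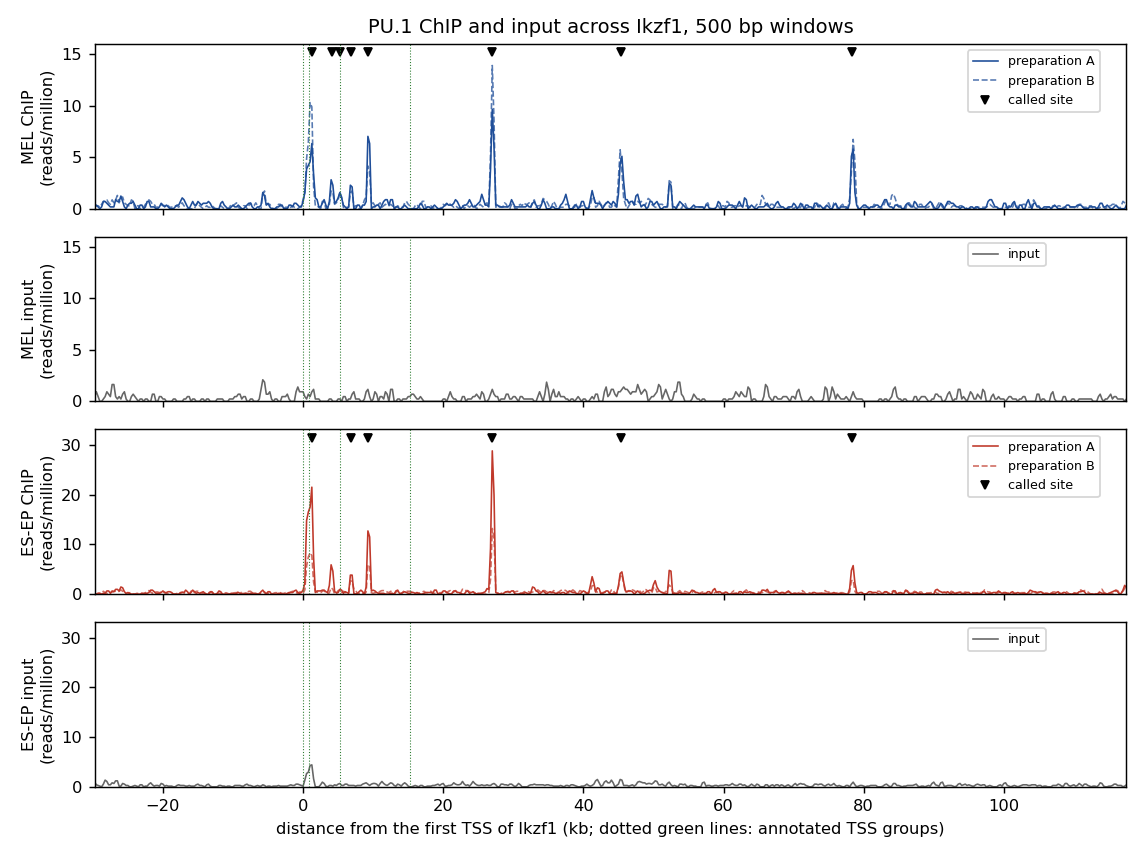
RPM in 500 bp windows across Ikzf1, by distance from the most upstream TSS (kb), for the 2 ChIP preparations and the input of each cell type; triangles mark called sites and dotted lines TSS groups. The peak at +27.0 kb is the highest in both cell types, and the input shows a rise in ES-EP at the TSS near +1 kb.

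The highest Ikzf1 site was at +27.0 kb (chr11:11611501-11612500), in an intron. MEL preparation A had 55 reads there (23 and 32 in its libraries) and preparation B had 97 (30 and 67), with 5 in the input. ES-EP had 181 reads in A (68 and 113) and 94 in B (19 and 75), with 4 in the input. Every ChIP library was above the input of its cell type when scaled by depth. The fold was 10.3 in MEL (8.69 to 12) against 38.5 in ES-EP (34.1 to 43.3). With the counting error of the input reads included the intervals were 4.30 to 32 and 14.9 to 142, which overlap. Of the sites called in ES-EP, 2.23% reached this fold, and in MEL cells 23.4% reached theirs. As levels the cell types overlapped, with 9.65 and 13.9 RPM in MEL against 28.8 and 13.2 RPM in ES-EP. The difference (MEL over ES-EP) was -0.76 on the log2 scale (SE 0.81) and did not pass limma's test (adjusted p = 0.559). Sites entered this test through a call in at least 1 cell type, so that a difference at a site called in 1 cell type alone is in part set by the choice of sites. The local input mean was 14.8 reads in MEL against 7.15 in ES-EP.

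The sequence of this site is shown with those of 3 others of Ikzf1 and Runx1, to set sites with and without the PU.1 word GGAAGT side by side. The Runx1 site at +247.0 kb lies between genes and the others lie in introns. Each is 200 bp of mm9 around the highest point, in the direction of the gene, on the strand given. Capitals mark GGAAGT on either strand. They also mark AAAGAGGAA, a PU.1 word with an AAAGA stretch before the GGAA core, which was added after the values were seen. The GATA word AGATAA is marked in the same way.
Ikzf1 +27.0 kb, chr11:11611911-11612110, plus strand: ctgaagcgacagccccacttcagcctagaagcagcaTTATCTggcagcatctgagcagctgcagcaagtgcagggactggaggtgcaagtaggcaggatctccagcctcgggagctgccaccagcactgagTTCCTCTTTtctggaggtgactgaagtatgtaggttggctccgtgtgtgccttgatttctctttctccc
Ikzf1 +9.3 kb, chr11:11594224-11594423, plus strand: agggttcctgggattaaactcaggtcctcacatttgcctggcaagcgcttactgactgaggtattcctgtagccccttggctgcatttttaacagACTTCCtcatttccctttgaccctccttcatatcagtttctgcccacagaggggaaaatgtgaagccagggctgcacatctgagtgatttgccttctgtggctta
Runx1 +25 kb, chr16:92801198-92801397, minus strand: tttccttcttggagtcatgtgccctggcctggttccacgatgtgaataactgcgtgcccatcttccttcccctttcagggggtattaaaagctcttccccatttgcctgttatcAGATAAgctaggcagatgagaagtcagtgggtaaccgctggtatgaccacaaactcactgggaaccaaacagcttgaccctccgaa
Runx1 +247.0 kb, chr16:92579207-92579406, minus strand: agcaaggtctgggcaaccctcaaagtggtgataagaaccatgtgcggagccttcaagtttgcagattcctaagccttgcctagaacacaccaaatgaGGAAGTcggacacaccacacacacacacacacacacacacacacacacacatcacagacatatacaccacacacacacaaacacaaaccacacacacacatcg

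The Ikzf1 site at +27.0 kb had a GATA word and the PU.1 word AAAGAGGAA (on the strand opposite to the one printed) but no GGAAGT, while GGAAGT stood within 4 bp of the highest point at +9.3 kb. At +9.3 kb the reads were 40 and 29 in MEL cells (5 in the input), while ES-EP had 80 and 42 (4 in the input). The folds were 4.65 in MEL (3.62 to 5.89) against 17.1 in ES-EP (14.2 to 20.4), and with the error of the input reads the intervals were 1.90 to 14.8 and 6.50 to 63.7. The site at +1.2 kb lies in an untranslated region at the TSS group that starts 0.9 kb downstream of the most upstream one. It had 36 and 69 reads in MEL against 135 and 55 in ES-EP, and the input had 4 and 33 reads. In ES-EP preparation B this window itself was not called (adjusted p of the exact Poisson test = 0.0615), and the call came from another window of the site. The same held for the site at +45.3 kb (adjusted p of the exact Poisson test = 0.0695 in ES-EP preparation B). The remaining Ikzf1 sites had fewer reads than these in ES-EP. In MEL cells the site at +78.3 kb had more reads than that at +9.3 kb (80 against 69). At +4.1 kb there were 16 and 12 in MEL against 37 and 9 in ES-EP (1 and 2 in the inputs), and ES-EP preparation A passed although the site was not called there. At +5.3 kb there were 9 and 11 in MEL against 6 and 6 in ES-EP (1 and 5 in the inputs). The site at +6.9 kb, called in both, had 13 and 11 against 24 and 19 reads (1 and 2 in the inputs). At +45.3 kb the reads were 25 and 40 against 26 and 25 (4 and 11 in the inputs), and at +78.3 kb 33 and 47 against 36 and 20 (4 and 7 in the inputs). None of the 8 Ikzf1 sites passed the test between cell types, and their log2 differences ran from -0.76 to 0.77.

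Ikzf2, the gene of Helios, had 1 site, 167.7 kb from its TSS and 13.0 kb past its end (chr1:69564501-69565250). It was called in MEL cells with 20 and 38 reads against 3 in the input, a fold of 6.52 (4.95 to 8.43). ES-EP had 52 and 19 reads against 8 in the input, and only preparation A passed. The preparations of ES-EP thus lay on either side of those of MEL cells.

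Runx1, the Runx gene needed for the formation of blood stem cells, had 4 sites. A pair of neighbouring sites lay at +24.2 and +25 kb in the intron behind the distal promoter, a stretch of the gene known for a haematopoietic enhancer with GATA and ETS sites. Whether the sites overlap it was not checked. Both were called in both cell types. At +25 kb (chr16:92801001-92801750) MEL cells had 23 reads in A (13 and 10) and 30 in B (12 and 18), with 6 in the input. ES-EP had 64 reads in A (23 and 41) and 54 in B (15 and 39), with 7 in the input. Both ES-EP preparations (10.2 and 7.61 RPM) were above both MEL preparations (4.04 and 4.29 RPM). The log2 difference of -1.07 (SE 0.71) did not pass limma's test (adjusted p = 0.327). The fold was 2.98 in MEL cells (2.23 to 3.90), the lowest of the called MEL sites, and 9.43 in ES-EP (7.81 to 11.3). With the error of the input reads the intervals were 1.28 to 8.48 and 4.44 to 24. At +24.2 kb MEL cells had 24 and 29 reads (5 in the input), and ES-EP had 29 and 24 (4 in the input).

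The other Runx1 sites were called in 1 cell type each. The site at +247.0 kb lies 22.4 kb past the end of the gene, and its printed sequence shows GGAAGT 2 bp from the highest point, beside a long CA repeat. MEL cells had 26 and 35 reads there with 0 in the input, a fold of 14.7 (11.2 to 18.9), and ES-EP had 19 and 11 with 12 in the input, a fold of 1.40 (0.944 to 2.00). Both MEL preparations were above both ES-EP preparations, and the log2 difference of 1.10 (SE 0.62) had an adjusted p of 0.235 in limma. With each library taken as a sample, which treats the libraries of a preparation as independent, the adjusted p was 0.0448, and with median-ratio size factors 0.0111. In the other alternatives this site did not pass. With the regional input ratio as an offset its log2 difference was 0.92 (adjusted p = 0.343 in limma). The site at +110.1 kb was called in ES-EP alone, with 35 and 20 reads against 4 in the input. MEL cells had 12 and 22 reads with 0 in the input there, and preparation A missed the threshold (adjusted p of the exact Poisson test = 0.0619), so that the call in 1 cell type does not show a difference (log2 difference -0.63, adjusted p = 0.523 in limma).

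**Figure D3:**
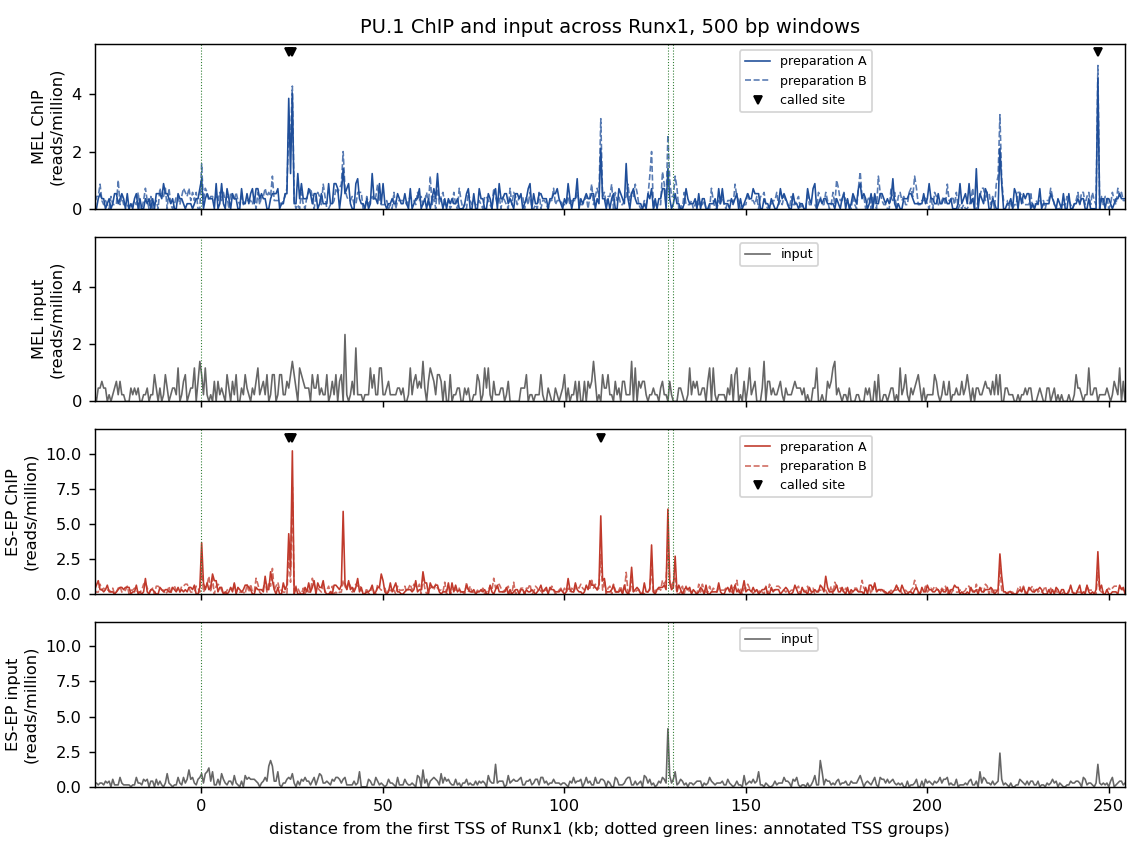
RPM in 500 bp windows across Runx1, by distance from the most upstream TSS (kb), for the 2 ChIP preparations and the input of each cell type; triangles mark called sites and dotted lines TSS groups. The pair at +24.2 and +25 kb rises over the input in both cell types, and the site at +247.0 kb stands out from its input in MEL cells.

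Runx3, a Runx gene of T cells and other haematopoietic cells, had the member site with the largest difference between the cell types with all preparations used. This was the intronic site at +8.3 kb (chr4:134684501-134685000). In MEL cells its libraries had 4 and 8 reads (A) and 8 and 15 reads (B), with 2 in the input. In ES-EP they had 0 and 0 reads in A and 1 and 1 in B, with 1 in the input. The groups did not overlap, and the ES-EP reads were at the level of the input (fold 0.431, 0.0521 to 1.56, against 5.37, 3.74 to 7.46, in MEL cells). The log2 difference was 4.01 (SE 0.83, adjusted p = 0.00012 in limma). Over 13 alternatives the difference ran from 2.33 to 5.08. Without ES-EP preparation A it was 2.92, below the 3.44 of the Cebpd site at +2.9 kb. The site was tested only because it was called in MEL cells, so the difference is a description and its p is too small. The call in MEL cells rested on few reads in preparation A (adjusted p of the exact Poisson test = 0.0343) and was made in 4 of 10 alternatives. The adjusted p of the difference was 0.0623 without MEL preparation A, 0.121 without MEL preparation B and 0.0941 with library 1 alone. It ranged from 4.08e-08 to 0.121 over 13 alternatives, of which 10 passed. Over 500 kb around the site the input of MEL cells had 1.29 times the depth-scaled reads of ES-EP, and with this ratio taken off the log2 difference was 3.64.

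The most occupied Runx3 site was a different one, at +85.8 kb and 28.5 kb past the end of the gene (chr4:134762001-134762750). MEL cells had 55 reads in A (21 and 34) and 127 in B (41 and 86), with 3 in the input. ES-EP had 179 in A (45 and 134) and 121 in B (30 and 91), with 17 in the input. The fold was 20.5 in MEL cells (17.6 to 23.7), which 4.78% of the sites called in MEL cells reached. In ES-EP it was 9.88 (8.79 to 11.1), which 32.9% of the sites called there reached. With the error of the input reads the intervals were 6.89 to 100 and 6.07 to 17.2. The groups overlapped in RPM, and the log2 difference was -0.74 (SE 0.81, adjusted p = 0.571 in limma). The site at +61.4 kb was called in MEL cells alone, with 13 and 25 reads against 17 and 7 in ES-EP, and ES-EP preparation A also passed.

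Runx2, the Runx gene of bone formation, had 2 sites, both called in MEL cells alone, although ES-EP preparation A also passed at both. The site at +37.0 kb (chr17:44914251-44915000), at the TSS of the overlapping gene Supt3h, had 10 and 23 reads against 1 in the input, a fold of 11.1 (7.66 to 15.6). ES-EP had 35 and 24 reads with 11 in the input, and both of its preparations were above both MEL preparations in RPM, although the site was not called there. The site at +1.7 kb had 10 reads in each MEL preparation with 0 in the input, and 13 and 8 in ES-EP with 2 in the input. Neither site passed the test between the cell types (adjusted p = 0.381 and 0.958 in limma).

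Cbfb, which encodes the common partner of the Runx proteins, had the highest level of the 24 sites in both cell types with the preparations summed. Its site at -0.2 kb (chr8:107694001-107695000) lies just upstream of the TSS. MEL cells had 50 reads in A (18 and 32) and 156 in B (50 and 106), with 2 in the input. ES-EP had 398 in A (111 and 287) and 193 in B (53 and 140), with 21 in the input. The fold was 34.7 in MEL cells (30.2 to 39.8), reached by 1.06% of the sites called there, and 15.8 in ES-EP (14.5 to 17.1), reached by 14.6%. With the error of the input reads the intervals were 9.50 to 289 and 10.2 to 25.6. The neighbouring site at +0.9 kb in the intron had 14 and 25 reads in MEL against 91 and 52 in ES-EP, with 1 and 11 in the input.

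Both ES-EP preparations were above both MEL preparations at both Cbfb sites. The log2 differences were -1.57 (SE 0.82, adjusted p = 0.191) and -1.79 (SE 0.69, adjusted p = 0.0601 in limma). With median-ratio size factors they passed limma's test, with adjusted p of 0.00624 and 0.00106. Over the genome these factors raised the calls from 1083 and 552 sites (higher in MEL, higher in ES-EP) to 1963 and 1230. Both sites also passed with each library as a sample and with the pairing crossed, which was chosen after seeing the data. Neither passed with library 1 alone, library 2 alone or the replicate block. The regional input of MEL cells was 0.692 times that of ES-EP there. With this ratio as an offset the log2 differences were -1.04 (SE 0.82, adjusted p = 0.419) and -1.25 (SE 0.69, adjusted p = 0.242 in limma). Each Cbfb site held GGAAGT, and these sequences and those of Runx3 +8.3 kb and Cebpd +2.9 kb are printed for comparison, with capitals as above.
Cbfb -0.2 kb, chr8:107694310-107694509, plus strand: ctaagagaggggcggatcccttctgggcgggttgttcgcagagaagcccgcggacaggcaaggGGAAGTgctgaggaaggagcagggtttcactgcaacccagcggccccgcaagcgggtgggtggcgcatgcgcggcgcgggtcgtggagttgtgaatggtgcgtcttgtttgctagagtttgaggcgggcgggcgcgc
Cbfb +0.9 kb, chr8:107695356-107695555, plus strand: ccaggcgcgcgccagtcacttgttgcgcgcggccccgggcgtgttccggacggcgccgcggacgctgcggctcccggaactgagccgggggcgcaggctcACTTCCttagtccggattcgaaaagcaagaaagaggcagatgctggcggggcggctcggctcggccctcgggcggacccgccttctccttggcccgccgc
Runx3 +8.3 kb, chr4:134684780-134684979, plus strand: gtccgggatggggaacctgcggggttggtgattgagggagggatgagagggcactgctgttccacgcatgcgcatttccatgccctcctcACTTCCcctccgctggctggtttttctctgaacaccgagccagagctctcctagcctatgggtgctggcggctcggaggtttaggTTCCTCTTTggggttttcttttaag
Cebpd +2.9 kb, chr16:15890150-15890349, plus strand: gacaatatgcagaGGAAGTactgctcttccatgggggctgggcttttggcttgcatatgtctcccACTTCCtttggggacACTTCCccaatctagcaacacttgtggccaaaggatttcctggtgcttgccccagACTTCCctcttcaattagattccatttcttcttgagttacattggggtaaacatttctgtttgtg

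Cebpb, the C/EBP gene of macrophages and of the response to inflammation, was the most occupied of the C/EBP genes. Its site at +0.4 kb (chr2:167514251-167515250), in the coding exon, had 63 reads in MEL preparation A (21 and 42) and 112 in B (42 and 70), with 0 in the input. ES-EP had 260 in A (91 and 169) and 102 in B (13 and 89), with 28 in the input. The fold was 19.7 in MEL (16.9 to 22.8) against 7.24 in ES-EP (6.51 to 8.02). As levels the cell types overlapped, with 11.1 and 16 RPM in MEL against 41.4 and 14.4 RPM in ES-EP, and the log2 difference was -0.88 (SE 0.82, adjusted p = 0.502 in limma). The fold was higher in MEL cells while the summed ChIP level was higher in ES-EP, and the input level was 0 RPM in MEL against 3.74 RPM in ES-EP. The site at -27.1 kb, near a TSS of Tmem189, was called in MEL cells alone (13 and 33 reads, 1 in the input). ES-EP had 29 and 13 reads there with 21 in the input.

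Cebpd had 1 site, 1.7 kb past the end of the gene in an intron of 2310008H04Rik (chr16:15890001-15890500). In MEL cells the libraries had 3 and 10 reads (A) and 5 and 10 reads (B), with 1 in the input. In ES-EP they had 0 and 1 in A and 1 and 0 in B, with 0 in the input. The groups did not overlap. The log2 difference was 3.35 (SE 0.82, adjusted p = 0.00139 in limma), and over 13 alternatives it ran from 2.06 to 3.8. This site too was tested only through its call in MEL cells, so the same limit holds. The adjusted p was 0.115 without MEL preparation A, 0.133 without B, 0.0535 without ES-EP preparation A, 0.122 without ES-EP preparation B and 0.212 with library 1 alone, and 8 of 13 alternatives passed. The printed 200 bp hold GGAAGT in 4 places, more than at any other of the 24 sites. The fold in MEL cells was 4.72 (3.14 to 6.82). The annotation used here lists Cebpd as a pseudogene, although the gene makes a C/EBP protein.

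Cebpa, the C/EBP gene needed for granulocytes, had 1 site, in the untranslated region at its TSS (chr7:35904001-35904750), called in MEL cells alone. MEL cells had 14 reads in A (2 and 12) and 33 in B (14 and 19), with 0 in the input, a fold of 6.89 (5.06 to 9.17). ES-EP had 12 and 8 reads with 9 in the input, a fold of 1.24 (0.760 to 1.92). Both MEL preparations were above both ES-EP preparations, and the log2 difference of 1.16 (SE 0.59) had an adjusted p of 0.176 in limma. With median-ratio size factors it was 0.0152, and in no other alternative did the site pass. The input of MEL cells over the surrounding 500 kb was 2.24 times that of ES-EP, the largest ratio among the sites, and with this ratio as an offset the log2 difference was -0.00 (SE 0.59). With the preparations summed, and without MEL preparation A, MEL cells had 4 sites at Cebpa. The 40 kb downstream of Cebpa held no called site in the analysis of both preparations. Cebpe, a C/EBP gene of late granulocytes, had no site with both preparations asked for, and 2 sites in ES-EP with the preparations summed. Its whole region had 210 and 318 reads in MEL against 278 and 330 in ES-EP. These are 0.785 and 0.969 times (MEL) and 1.12 and 1.17 times (ES-EP) the depth-scaled input.

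Between the cell types, 2 of the 24 sites (Cebpd +2.9 kb and Runx3 +8.3 kb) were higher in MEL cells and 0 were higher in ES-EP at an adjusted p below 0.05 in limma. Both were in the test only through their call in MEL cells, so this count does not stand as support for a difference. At an unadjusted p below 0.05 the counts were 3 (with Cebpa) and 1 (Cbfb +0.9 kb), where 16.3% of all sites were higher in MEL and 11.3% were higher in ES-EP. The use of limma on log2 of CPM plus 0.5 gave 2 and 0 adjusted calls among the members. Over the genome 10.2% of the sites were higher in MEL and 5.19% were higher in ES-EP. The median log2 difference was -0.24 over the 24 sites and -0.22 over all sites. Both MEL preparations were above both ES-EP preparations at 7 of the 24 sites (26.6% of all sites), and the reverse held at 5 (27.9%). Of the 11 sites called in MEL cells alone, 5 also passed in 1 of the 2 ES-EP preparations. The share among all such sites of the genome was not counted, so this is not read as a trait of these genes.

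**Figure D4:**
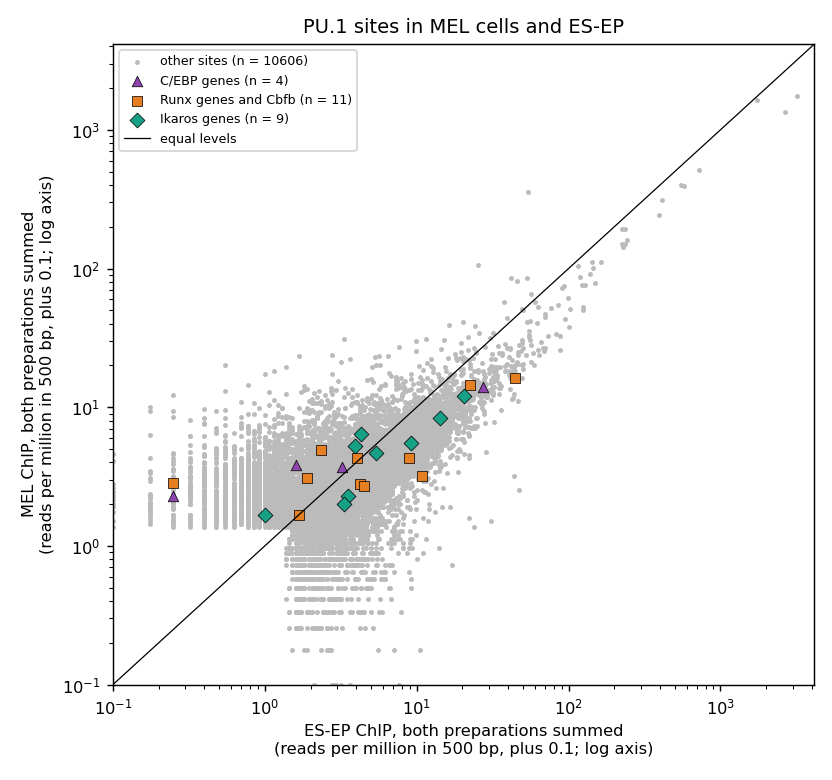
RPM plus 0.1 of both ChIP preparations summed, ES-EP on the x axis and MEL cells on the y axis (log axes), for the 24 sites by gene family and for the 10606 other sites (grey). The 2 points at the left, far above the line of equal levels, are Cebpd +2.9 kb and Runx3 +8.3 kb, and the other points lie within the main cloud.

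The promoters of the genes were examined apart from the called sites, since their position comes from the annotation. TSSs of a gene within 500 bp of each other were taken as 1 promoter, which gave 19 promoters for the 10 genes, and reads within 500 bp on either side were compared with input by an exact binomial test in each preparation. In MEL cells 3 of the 19 were called and in ES-EP 3, and these were the same promoters (Cebpb, Cbfb and Ikzf1 promoter 2). Over all 31247 promoters 3.52% were called in MEL against 3.6% in ES-EP. The Cbfb promoter had 56 and 171 reads in MEL (3 in the input) against 437 and 213 in ES-EP (43 in the input). The ratio of ChIP to input, scaled by depth, was 25.5 in MEL (8.62 to 125) against 8.46 in ES-EP (6.21 to 11.8). For Cebpb the ratios were 31.4 (8.56 to 261) and 4.91 (3.60 to 6.85), with 63 and 123 reads in MEL against 281 and 114 in ES-EP, and inputs of 2 and 45. For Ikzf1 promoter 2 they were 8.53 (4.05 to 21.5) and 3.32 (2.52 to 4.44), with 62 and 115 reads in MEL against 246 and 110 in ES-EP, and inputs of 7 and 60.

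At these 3 promoters the ratios were higher in MEL cells while the summed ChIP levels were lower, and the input was higher in ES-EP. The input of ES-EP had more RPM than that of MEL cells at 15 of the 19 promoters, with medians of 1.60 and 0.701 RPM. Over all promoters the medians were 0.801 and 0.701 RPM. The part of the input in the order of the ratios was not tested.

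**Figure D5:**
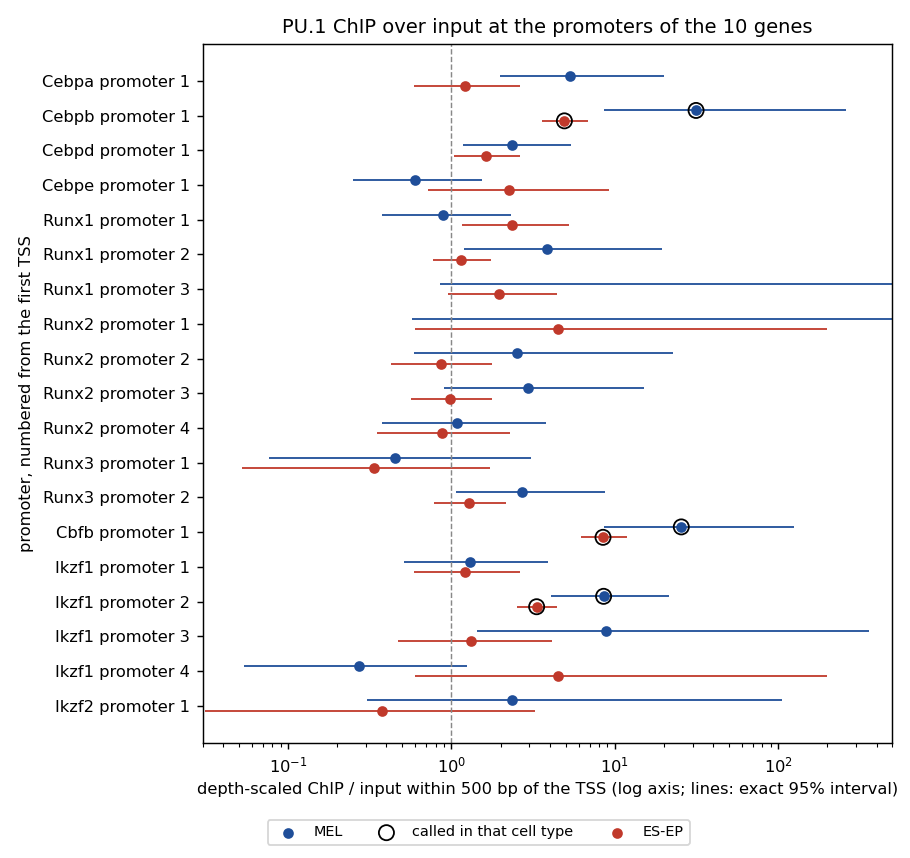
Depth-scaled ratio of ChIP to input reads within 500 bp of the TSS (log axis) with its exact 95% interval for the 19 promoters, in MEL cells and ES-EP; a line without a point has no input read in MEL cells, and black rings mark promoters called in that cell type. The Cebpb, Cbfb and Ikzf1 promoter 2 rows are ringed in both cell types, and most other intervals reach below 1.

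The other promoters were not called in both preparations of a cell type. MEL preparation B alone passed at the promoters of Cebpa and Cebpd, at Runx1 promoter 2, Runx3 promoter 2 and Ikzf1 promoter 3, and ES-EP preparation A alone at Runx1 promoter 1. The Cebpa promoter had 20 and 43 reads in MEL cells with 4 in the input (ratio 5.31, 1.98 to 20.1), while ES-EP had 15 and 11 reads with 12 in the input. The Cebpd promoter had 21 and 42 reads in MEL (9 in the input) against 40 and 38 in ES-EP (27 in the input). The Cebpe promoter had 2 and 14 reads against 9 in MEL cells, and 9 and 7 against 4 in ES-EP. At the distal promoter of Runx1 MEL cells had 9 and 12 reads against 8 in the input, and ES-EP had 27 and 15 against 10. At the first of its proximal promoters the reads were 9 and 25 against 3 in MEL cells, and 45 and 33 against 38 in ES-EP. Runx1 promoter 3 had 3 and 8 reads against 0 in MEL cells, and 20 and 15 against 10 in ES-EP. Of the Runx promoters, the proximal one of Runx3 had 11 and 29 reads against 5 in MEL cells and 38 and 17 against 24 in ES-EP. The distal one of Runx3 had 2 and 2 reads in MEL against 0 and 3 in ES-EP.

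The 4 Runx2 promoters had between 1 and 15 reads in a MEL preparation and between 3 and 19 in an ES-EP preparation. Ikzf1 promoters 1, 3 and 4 had between 0 and 14 reads in a MEL preparation and between 2 and 17 in an ES-EP preparation. The Ikzf2 promoter had 3 and 4 reads in MEL against 1 and 1 in ES-EP. Of the 15 member promoters with at least 20 ChIP reads, 0 differed between the cell types by limma, and 1 (Runx1 promoter 3) had an unadjusted p below 0.05. Over the genome 1194 promoters had an unadjusted p below 0.05. With limma on log2 of CPM plus 0.5 in place of voom the count was also 0. Over the 16913 promoters tested 0.065% were higher in MEL and 0.0591% were higher in ES-EP. Of these calls 52.4% were higher in MEL, with 63.1% under median-ratio size factors, 64.3% with the regional input as an offset, 47.1% with at most 1 read per position, 45.5% with each library as a sample and 11.9% with the pairing crossed, so that neither direction holds the majority throughout. The median log2 difference was -0.44 over the member promoters and -0.34 over all.

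The words around the highest point were counted in 200 bp on both strands. GGAAGT was present at 14 of the 24 sites (58.3%), at 63.0% of all sites of the genome, at 17% of all promoters and at 11.2% of positions taken every 100 kb. GAGGAAGT, a longer PU.1 word that contains GGAAGT, was present at 7 sites (29.2%) and at 28.8% of all sites, against 1.13% of the positions every 100 kb. The word AAAGAGGAA was present at 7 sites (29.2%), at 19.2% of all sites and at 1.26% of the positions every 100 kb. Of the 10 sites without GGAAGT, 4 held it, namely Ikzf1 +27.0 kb, Runx1 +110.1 kb, Runx3 +85.8 kb and Ikzf2 +167.7 kb. The share of AAAGAGGAA among all sites of the genome without GGAAGT was not counted, and the word was added after the values were seen. The highest sites of Cebpa, Runx1, Runx3, Ikzf1 and Ikzf2 over both cell types held no GGAAGT, and those of Cebpb, Cebpd, Runx2 and Cbfb held it. Cebpa, Cebpd and Ikzf2 have 1 site each. In MEL cells the highest Runx1 site, at +247.0 kb, held GGAAGT. The Runx word TGNGGT was found at 10 sites (41.7%, against 33.9% of all sites), the C/EBP word TTGCNNAA at 1 (4.17% against 7.19%) and the Ikaros word TGGGAA at 7 (29.2% against 14.6%). The GATA word AGATAA was found at 3 sites (12.5%, against 12.7% of all sites). These 3 were Ikzf1 +27.0 kb and Runx1 +25 and +110.1 kb, which hold no GGAAGT, a pattern noticed after the values were seen. Over the genome AGATAA was present at 10.1% of the sites without GGAAGT and at 14.2% of those with it.

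Genes related to these families were listed as well. They are genes grouped with C/EBP by family or by name alone (Cebpz), other Ikaros genes, corepressors and partners of Runx, regulators of C/EBP and a partner of Ikaros (Chd4). The 15 genes had 16 sites at 9 genes, of which 12 were called in MEL, 9 were called in ES-EP and 5 in both. None was higher in MEL cells by limma and 2 were higher in ES-EP, both of them tested only through their call in ES-EP. These were the site 35.6 kb downstream of the TSS of Ddit3, which is past the end of Ddit3 in a coding exon of Arhgap9 (6 and 6 reads in MEL against 35 and 20 in ES-EP, log2 difference -2.0, adjusted p = 0.0189 in limma), and the Cbfa2t2 site at +27.5 kb (9 and 8 reads in MEL against 48 and 31 in ES-EP, log2 difference -2.06, adjusted p = 0.0159). The site with the most reads lay 1.6 kb upstream of Cbfa2t3, the gene of a corepressor of erythroid factors, with 110 and 375 reads in MEL against 195 and 129 in ES-EP, and inputs of 11 and 3. Next were the Cbfa2t2 site at +132.7 kb, which is at the TSS of E2f1 (26 and 72 reads in MEL against 78 and 57 in ES-EP), and the Cebpz site at +1.1 kb (26 and 38 reads, and 68 and 28). Of the 33 promoters of these genes 1 was called in MEL (Tle1) against 1 in ES-EP (Cebpz). Ikzf3, Ikzf4, Ikzf5, Cebpg, Runx1t1 and Trib2 had no site.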

How the data were processed

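The authors sequenced 11 libraries, and per the labels and the methods the reads were aligned to mm9 with unique hits kept. Each line of the deposited files is 1 aligned read, without a measured value. Starts are counted from 1. The letter of a library was read as its preparation. Reads were shifted by 70 bp (MEL cells) or 65 bp (ES-EP) and counted in 500 bp windows moved by 250 bp, and the depth is all reads on assembled chromosomes. Sites had adjusted p below 0.05 (Benjamini-Hochberg over 10619552 windows) in both preparations, and overlapping windows of both cell types were joined. Values are those of the window with the most ChIP reads. A site belonged to a gene by that window's centre. Genes came from GENCODE vM1 on NCBIM37. Cell types were compared with limma 3.58.1 (voom, two-sided, R 4.3.3) over preparations, adjusted over all sites, or over all promoters with at least 20 ChIP reads. Counting used Python 3.11.15 with SciPy 1.17.1. The tests behind the window and promoter calls and the limma comparison were tried on simulated counts. These counts held no shift between preparations such as that seen here, so the trials do not check the calls against it. Every member was named, with its promoter and highest site, and each site passing limma. Members and lists were chosen with earlier results of these data known. Separate cultures are not stated for the preparations, so limma's p-values measure the spread between preparations, which may be technical. The p-values of the calls (exact Poisson and binomial tests) cover the counting error within a preparation only. Peak lists of the study were not used here.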

Additional observations from a re-analysis of the deposited data

Results flagged for a closer look

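Among 68 sets of 4 libraries (1 site or promoter in 1 cell type, at least 20 reads), 2 had a library far from the other 3, and chance alone gives about 1 in 20. At the Runx2 site at +1.7 kb, library A1 of ES-EP had 3.83 RPM (9 reads) and the others had between 1.02 and 1.33 RPM. At the Ikzf1 site at +45.3 kb, library B1 of ES-EP had 1.77 RPM (4 reads) and the others had between 4.07 and 4.34 RPM.

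The cell types differed by limma's test at the Cebpd site at +2.9 kb (log2 difference 3.35) and at the Runx3 site at +8.3 kb (log2 difference 4.01). Both sites were in the test only through their call in MEL cells, which sets part of the difference. They also have few reads behind them, with 28 and 35 reads in MEL against 2 in ES-EP at each.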

How the results depend on the processing

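The number of member sites called in MEL cells, 23 in the report, was 46 with the preparations summed, 10 with library 1 alone and 6 with an exact binomial test on the window's own input. It was 25 to 42 with 1 MEL preparation left out, 42 being the value without preparation A. In ES-EP the number, 13, was 36 with the preparations summed, 6 with library 1 alone and 7 with the binomial test. It was 15 to 33 with 1 preparation or input library left out, 33 being the value without preparation B. Promoters called in MEL cells, 3, were 6 with the preparations summed and 3 to 8 without 1 preparation (8 without A). In ES-EP they were 1 with library 1 alone, 1 within 250 bp of the TSS and 3 to 4 without 1 preparation or input library. At most 1 read per position, a stricter threshold, library 2 alone, windows side by side and unshifted reads kept the counts of sites within 1.5 times.

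Of the differences between cell types, the 2 sites higher in MEL cells were 4 with median-ratio size factors, 0 with at least 40 reads, 0 with library 1 alone and 0 to 1 without 1 preparation. The filter at 40 reads removes both sites. Sites higher in ES-EP were 2 with median-ratio size factors and 2 with each library as a sample, the Cbfb sites in both cases, and 0 without any 1 preparation. Promoters higher in MEL cells were 1 (Cebpa) with median-ratio size factors. These factors moved the median log2 difference of all sites by 0.19 and that of all promoters by 0.23, and 63.1% of the promoter calls were then higher in MEL cells against 52.4%. The letters A and B did not pair the samples (correlation of deviations -0.0755 over sites and -0.168 over promoters), and the replicate block gave 2 sites higher in MEL cells and 0 higher in ES-EP, and 0 promoters in either direction. With the pairing crossed, an alternative chosen after seeing the data, 2 sites were higher in MEL against 4 in ES-EP, and 1 promoter in MEL against 4 in ES-EP. Over the genome calls dropped from 1083 and 552 sites (higher in MEL, higher in ES-EP) to 38 and 8 without MEL preparation A and to 10 and 4 without B, and were 1122 and 211 without ES-EP preparation A and 190 and 343 without B. They were 1963 and 1230 with median-ratio size factors, 1423 and 1041 with each library as a sample, 523 and 269 with at least 40 reads, 201 and 118 with library 1, 661 and 309 with library 2 and 1088 and 1388 with the pairing crossed. For promoters, 11 and 10 calls became 31 and 15 on log2 of CPM plus 0.5, 210 and 123 with median-ratio size factors, 65 and 78 with each library as a sample, 6 and 3 with at least 40 reads, 9 and 5 with the regional offset, 10 and 2 with the block, 275 and 2037 crossed, 1 and 1 with library 1, 0 and 1 with library 2, and 0 and 0 with no minimum or without any 1 preparation. Windows found with library 1 inside the called sites and counted in library 2 gave folds of at least 2.53 at all 36 called positions. Of these folds, 34 were within the counting interval. The sites had been called with the reads of both libraries. Library 2 thus had a part in choosing them, and these folds are not a separate check of the calls. The causes of these changes were not tested.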
